A study of Mus musculus with 5 samples.

Results

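The genes described here are the regulators of the G1 phase that hand cyclin D activity to the cell cycle or hold it back. They were chosen by name as the rows of the expression table for the Cip/Kip inhibitors Cdkn1a, Cdkn1b and Cdkn1c, the INK4 inhibitors Cdkn2c and Cdkn2d, the D cyclins Ccnd1, Ccnd2 and Ccnd3, and the kinases Cdk4 and Cdk6, which makes 10 of 55335 genes. Their transcripts were measured by bulk RNA sequencing in haematopoietic stem cells (HSCs) sorted from the bone marrow of mice aged 3 weeks. The sort took cells without lineage antigens that carried Kit, Sca-1 and CD150 and lacked CD48. The groups were wild-type (3 libraries) and RankCre-ki (2 libraries), and each library was made from 80 to 90 cells. RankCre-ki mice carried Cre in 1 allele of Rank (genotype Rank cre/+;Csf1r fl/-), with 1 null and 1 floxed allele of Csf1r. The strain label of all libraries was C57BL/6J, while the study's methods keep the Csf1r null line on C3H/HeJ. According to the study the floxed allele is lost from the macrophages that arise in the embryo, and HSCs are not cells in which this Cre acts. The mice are without osteoclasts and have dense bone. The null allele is carried by all cells of these mice and not by wild-type cells. Neither the labels nor the methods say whether libraries of a group came from separate animals, so p-values measure only the spread between these samples.

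D cyclins bind Cdk4 or Cdk6, and the complexes phosphorylate the retinoblastoma protein family, which frees E2F factors to switch on genes for DNA replication. INK4 proteins bind the kinases and keep D cyclins off them, while Cip/Kip proteins bind cyclin and kinase together and chiefly block Cdk2 complexes. In adult HSCs, which divide rarely, Cdkn1c is known as a main guard of quiescence, Cdkn1a as a target of p53 and Cdkn2c as a brake on self-renewal.

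A few things that hold for all genes bear on these members. Values are in TPM, a length-corrected share of a fixed total of transcripts in each library, so levels can be set side by side between genes. A difference is the mean log2(TPM + 1) of RankCre-ki minus that of wild-type, which understates changes of low genes. Sequencing depth is unknown from TPM, and no counting error can be given. The wild-type libraries had 9021 to 11084 genes at 1 TPM or more and the RankCre-ki libraries 12801 and 16386, and the median difference of the 13981 tested genes was 0.52, so a difference near that value is that of a typical gene. Wild-type replicate 1 and RankCre-ki replicate 2 share one naming scheme (name series 1) and the other 3 libraries another (name series 2). The methods describe a pair of tagmentation kits used for sets of that same composition. RankCre-ki replicate 2 is labelled female, yet its Xist level was 0.0229 TPM and its Eif2s3y level 62.5 TPM, as in the male wild-type replicate 1, so name series and sex of the transcripts cannot be told apart. Of the 14 genes of HSC sort and identity, 14 passed the filter on low values. In limma 3 of them were higher in RankCre-ki at an unadjusted p under 0.05 (background 6.34% of genes). For 4 both RankCre-ki values lay above all wild-type values (background 18.8%). Cd48, whose product the sort excluded, was at 0, 0 and 0 TPM in wild-type and at 4.92 and 5.62 TPM in RankCre-ki libraries. Markers of lineage cells summed to 139 to 150 TPM in wild-type and to 298 and 834 TPM in RankCre-ki libraries (a list median difference of 1.66 over 6 tested genes). Of these 6, 3 were higher in RankCre-ki at an unadjusted p under 0.05. S100a8, a neutrophil gene, was at 0.0677, 0 and 0 TPM in wild-type against 8.31 and 12.9 TPM, Klrb1c, a natural killer cell receptor, at 0.0516, 0 and 0 against 4.40 and 12.8 TPM, and Hbb-bt, a globin, at 36.2, 124 and 109 against 251 and 632 TPM. Hba-a1, another globin, went the other way, at 31.6, 0 and 3.78 against 1.58 and 2.87 TPM, with groups that overlapped. S100a9 did so too, at 2.17, 0 and 0 against 0 and 0 TPM, and was not tested. Cd48, S100a8 and Klrb1c reached 1 TPM in RankCre-ki libraries alone, so they passed the filter on low values only through that group. Cd79a, Ly6g and Elane were at 0 in all libraries. Macrophage markers summed to 20.8 to 53.9 TPM and to 53.4 and 59.3 TPM, with Adgre1 and Marco at 0 in all. Stromal and endothelial markers summed to 53.8 to 94.9 TPM and to 81.3 and 55.2 TPM. Csf1r itself was at 2.39, 0 and 0.234 TPM in wild-type and at 17.5 and 6.46 TPM in RankCre-ki libraries, in replicate order as in all such series of values here, a whole-gene value that cannot check the deletion.

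The proximal promoters of 3 members are shown because these genes are the inhibitor with groups that did not overlap, the cyclin with the smallest p, and the most abundant kinase, whose values split by name series. RefSeq starts on GRCm38.p6 matched 7 of the 10 members (10 starts). Cdkn1c, Ccnd1 and Ccnd2 had no entry. The 250 bases before each start are printed 5′ to 3′ on the plus strand, on which all 3 genes lie. They are chr17:29090729-29090978 for the upstream listed start of Cdkn1a, chr17:47593217-47593466 for the downstream listed start of Ccnd3, and chr10:127063285-127063534 for Cdk4. Capitals mark motifs found on either strand. In Cdkn1a they mark CATGTC, the core of p53 response elements. In Ccnd3 they mark the GC box, spelled GGGCGG, as well as the core letters of a cyclic AMP response element, spelled TGACG. In Cdk4 they mark the E-box, spelled CACGTG, which is the element of Myc and related factors.
Cdkn1a: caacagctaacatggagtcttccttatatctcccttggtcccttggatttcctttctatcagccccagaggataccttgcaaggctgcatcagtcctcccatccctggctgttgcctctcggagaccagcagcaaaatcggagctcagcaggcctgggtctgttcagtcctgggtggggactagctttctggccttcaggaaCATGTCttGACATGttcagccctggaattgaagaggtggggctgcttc
Ccnd3: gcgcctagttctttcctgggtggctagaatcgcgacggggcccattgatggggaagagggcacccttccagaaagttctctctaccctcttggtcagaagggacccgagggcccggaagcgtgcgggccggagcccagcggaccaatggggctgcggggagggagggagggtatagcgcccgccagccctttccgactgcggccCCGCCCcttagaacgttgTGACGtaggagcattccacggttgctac
Cdk4: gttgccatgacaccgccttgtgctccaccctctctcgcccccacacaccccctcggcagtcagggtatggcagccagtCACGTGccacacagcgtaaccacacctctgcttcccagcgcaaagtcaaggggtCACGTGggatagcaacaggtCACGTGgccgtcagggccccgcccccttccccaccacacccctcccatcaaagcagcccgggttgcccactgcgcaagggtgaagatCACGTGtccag
In Cdkn1a the capitals are CATGTC followed closely by its reverse complement, and it was found on either strand in 8.2% of the 32851 RefSeq starts. The window before the downstream listed start of Cdkn1a, chr17:29093519-29093768, held 0 copies of it. The Ccnd3 window holds 1 GC box and 1 core of the cyclic AMP response element, found in 32.7% and 17.8% of starts. In the Cdk4 window the E-box occurs 4 times, where 6.0% of starts have it and 0.06% have 3 or more. These matches describe the letters of the windows and no binding was measured.

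The members spanned a wide range of levels. In mean TPM over the 5 libraries the order was Ccnd2 (345 TPM), Cdk4 (335 TPM), Ccnd3 (147 TPM), Cdkn2d (76.4 TPM), Cdkn1c (24.0 TPM), Cdkn1b (7.57 TPM), Cdk6 (4.95 TPM), Ccnd1 (4.44 TPM), Cdkn1a (3.40 TPM) and Cdkn2c (0.946 TPM). Of the 9 pairs of neighbours in that order, 3 differed beyond their spread, in that the within-library log2 difference had the same sign in all 5 libraries and a mean above its SD. These were Cdk4 over Ccnd3, Cdkn2d over Cdkn1c and Cdkn1c over Cdkn1b. The sorted HSCs thus carried mainly Ccnd2 and Ccnd3 among the D cyclins, Cdk4 rather than Cdk6, and Cdkn2d and Cdkn1c among the inhibitors. There were 7 members at 1 TPM or more in all 5 libraries, and the exceptions were Cdkn1a, Ccnd1 and Cdkn2c.

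**Figure D1:**
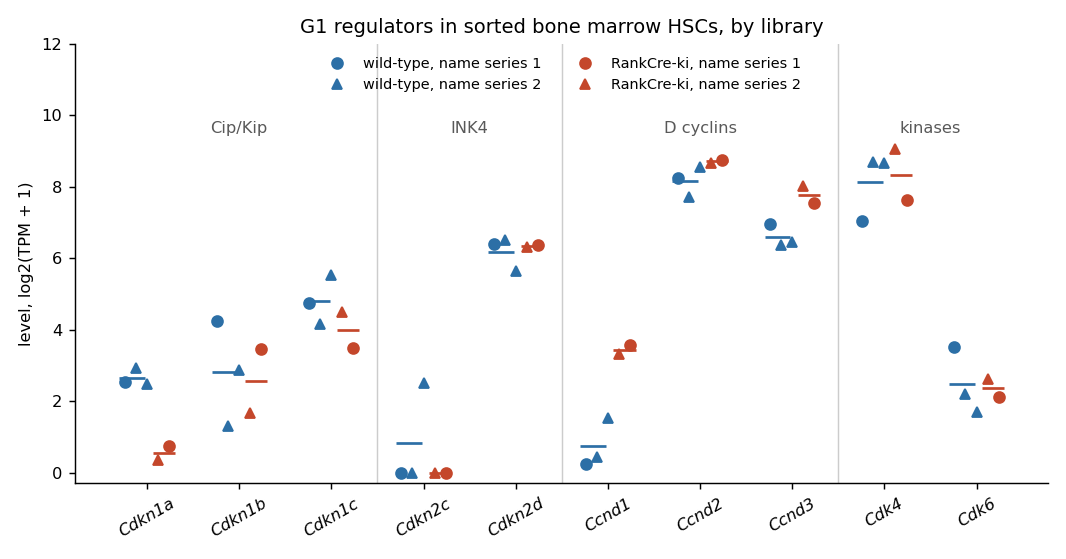
Level of each member, log2(TPM + 1), in each of the 5 libraries. Colour gives the genotype, circles name series 1, triangles name series 2, and horizontal bars the group means. RankCre-ki points lie below all wild-type points for Cdkn1a and above them for Ccnd1, Ccnd2 and Ccnd3, and Cdk4 separates by name series.

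Between the genotypes, D cyclin transcripts were higher and Cdkn1a was lower in both RankCre-ki libraries, while Cdkn2d, Cdk4 and Cdk6 overlapped. With limma and Benjamini-Hochberg adjustment, 0 of the 9 tested members passed the study's threshold, as did 0% of all tested genes. That threshold was an adjusted p no higher than 0.1 with a log2 difference beyond 2 in size. The study applied it to read counts with a different test and reported genes called in both directions, so the 2 outcomes are not on the same measure. At an unadjusted p under 0.05 there were 2 members higher in RankCre-ki, Ccnd1 and Ccnd3 (background 6.34% of genes), and 0 lower (background 0.529%). For 3 members each RankCre-ki value exceeded every wild-type value (background 18.8%), and for 1 each was lower than every wild-type value (background 3.71%). The difference was above 0 for 5 of the 9, against 72.3% of all tested genes. Their median difference was 0.16, which is -0.35 relative to the median of all tested genes (0.15 under quantile normalization, and from -0.76 to -0.091 with 1 library left out, these ends being the fits that lack wild-type replicates 3 and 1). Without wild-type replicate 1 the threshold was passed by 1 gene, and without RankCre-ki replicate 1 by 304 genes, with 0 members in either case. Under median-ratio scaling of the libraries, which moves the median of all genes to 0.16, Ccnd1 alone stayed above and Cdkn1c joined Cdkn1a below. The backgrounds were then 12.2% above and 8.88% below.

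**Figure D2:**
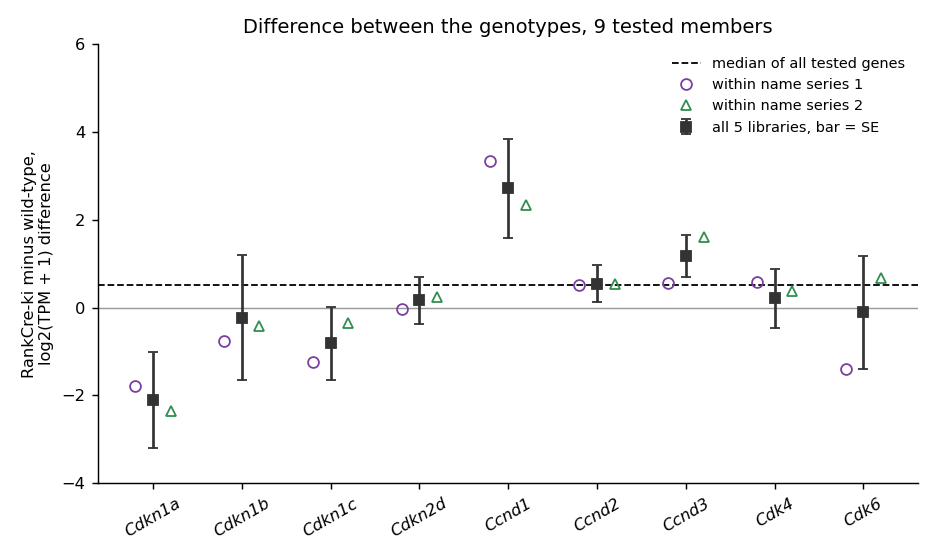
Difference of mean log2(TPM + 1), RankCre-ki minus wild-type, for the 9 tested members. Squares with bars are the estimates of limma with SE from all 5 libraries, open circles and triangles the differences within name series 1 and 2, and the dashed line the median of all tested genes at 0.52. Cdkn1a lies below 0 and Ccnd1 above the dashed line in both series, while Cdk6 has opposite signs in them.

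Among the Cip/Kip inhibitors, Cdkn1a (chr17:29090976-29100727, plus strand, GENCODE M21 on GRCm38, as for the positions that follow) encodes p21, the inhibitor that p53 induces after DNA damage. Its level was 4.79, 6.67 and 4.59 TPM in wild-type libraries, and 0.275 and 0.668 TPM in RankCre-ki libraries. All wild-type values were several times the RankCre-ki values and the groups did not overlap. The log2 difference was -2.11 ± 1.09 (SE), with an unadjusted p of 0.089 and an adjusted p of 0.858 in limma. It was -1.80 within name series 1 and -2.36 within name series 2, and -2.30 without RankCre-ki replicate 2. Within the detected genes of its library, Cdkn1a stood at the 47.0 to 63.3 percentile in wild-type and at the 23.9 and 32.4 percentile in RankCre-ki. The groups also stayed apart under median-ratio scaling and quantile normalization. Cdkn1a reached 1 TPM in wild-type libraries alone, so it passed the filter on low values only through that group. Trp53, which encodes p53, was at 86.3, 83.8 and 156 TPM in wild-type and at 158 and 135 TPM in RankCre-ki libraries. Its groups overlapped, with a log2 difference of 0.48 ± 0.50 (SE), and neither RankCre-ki value was below the wild-type range.

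Cdkn1b (chr6:134920401-134925513, plus strand) encodes p27, an inhibitor whose amount is largely set by protein degradation. It was at 17.8, 1.44 and 6.37 TPM in wild-type and at 2.18 and 10.1 TPM in RankCre-ki libraries. The wild-type libraries alone spanned both RankCre-ki values, and the 2 libraries of name series 1 were the highest. The log2 difference of -0.23 ± 1.43 (SE) had a p of 0.876 and an adjusted p of 0.993 in limma.

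Cdkn1c (chr7:143458339-143461050, minus strand) encodes p57 and is an imprinted gene expressed from the maternal allele. It was at 25.6, 17.0 and 45.5 TPM in wild-type and at 21.7 and 10.2 TPM in RankCre-ki libraries. RankCre-ki replicate 1 lay inside the wild-type range and replicate 2 below it. The log2 difference was -0.82 ± 0.84 (SE), with an unadjusted p of 0.358 and an adjusted p of 0.950 in limma. It was -1.32 without RankCre-ki replicate 1 and -0.31 without RankCre-ki replicate 2. After median-ratio scaling the values were 30.6, 19.7 and 38.0 against 15.7 and 7.69 scaled TPM, and the groups no longer overlapped.

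Cdkn1c made up 48.8% to 89.8% of the summed Cip/Kip transcripts of a library. Cdkn1a made up 9.94%, 26.6% and 8.12% of them in wild-type and 1.13% and 3.18% in RankCre-ki libraries. The summed Cip/Kip level was 48.2, 25.1 and 56.5 TPM in wild-type and 24.2 and 21 TPM in RankCre-ki libraries. The RankCre-ki sums lay below all wild-type sums, but RankCre-ki replicate 1 was close to wild-type replicate 2. They also lay below under median-ratio scaling, at 57.6, 29.1 and 47.2 against 17.5 and 15.8 scaled TPM.

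Of the INK4 inhibitors, Cdkn2d (chr9:21288410-21291407, minus strand), which encodes p19, accounted for 91.1% to 100% of the measured pair. It was at 82.6, 90.9 and 48.5 TPM in wild-type and at 78.9 and 81.3 TPM in RankCre-ki libraries. Both RankCre-ki values lay inside the wild-type range. The log2 difference of 0.16 ± 0.54 (SE) had a p of 0.772 and an adjusted p of 0.992 in limma, and it changed sign under median-ratio scaling, to -0.34. Cdkn2c (chr4:109660876-109667189, minus strand), which encodes p18, was found in wild-type replicate 3 alone, at 4.73 TPM, and was listed at 0 in the other libraries, so it did not pass the filter on low values. The 2 further INK4 genes, Cdkn2a and Cdkn2b, were listed at 0 in all 5 libraries.

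Among the D cyclins, Ccnd1 (chr7:144929931-144939925, minus strand) was the least abundant and had the largest difference of all members on TPM as given. Under quantile normalization that of Cdkn1a was larger in size, at -2.65 against 1.64 for Ccnd1. Ccnd1 was at 0.175, 0.353 and 1.86 TPM in wild-type and at 8.91 and 10.9 TPM in RankCre-ki libraries. The RankCre-ki values were close to each other and above all wild-type values. The log2 difference was 2.71 ± 1.13 (SE), with an unadjusted p of 0.043 and an adjusted p of 0.691 in limma. It was 3.34 within name series 1, 2.33 within name series 2 and 2.58 without RankCre-ki replicate 2, where p was 0.063. Ccnd1 stood at the 27.7 to 38.7 percentile of detected genes in wild-type and at the 59.5 and 72.2 percentile in RankCre-ki libraries. Its 3′ end overlaps LTO1 on the opposite strand over 1771 bases, and LTO1 was at 9.97, 22.2 and 0.263 TPM in wild-type and at 12.8 and 18.5 TPM in RankCre-ki libraries. It is not stated whether the counting used strand, so reads of the shared bases cannot be told apart. Summed over both genes the groups overlapped, with a log2 difference of 1.49.

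Ccnd2 (chr6:127125162-127152193, minus strand) was the most abundant cyclin and made up 60.4% to 80.9% of the D cyclin transcripts. It was at 302, 211 and 375 TPM in wild-type and at 405 and 431 TPM in RankCre-ki libraries. The groups did not overlap, but RankCre-ki replicate 1 was near wild-type replicate 3. The log2 difference of 0.54 ± 0.42 (SE), with an unadjusted p of 0.239 and an adjusted p of 0.916 in limma, was about that of the median gene. It was 0.029 under median-ratio scaling, where the groups overlapped. The antisense gene Gm43126, which overlaps the 3′ end of Ccnd2 over 994 bases, was at 7.91, 57.8 and 34.7 TPM in wild-type and was 0 in each RankCre-ki library. With its TPM added to those of Ccnd2 the values were 310, 268 and 410 against 405 and 431 TPM, and the groups overlapped.

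Ccnd3 (chr17:47505051-47599691, plus strand), the other abundant D cyclin, was at 124, 81.8 and 86.5 TPM in wild-type and at 257 and 185 TPM in RankCre-ki libraries. Both RankCre-ki values lay above all wild-type values. The log2 difference was 1.18 ± 0.47 (SE), with an unadjusted p of 0.037 and an adjusted p of 0.661 in limma. It was 0.57 within name series 1, close to the 0.53 of the median gene there, and 1.6 within name series 2, where the median gene was at 0.40. It was 0.94 without RankCre-ki replicate 1 and 1.41 without RankCre-ki replicate 2. Under median-ratio scaling it was 0.67 with an unadjusted p of 0.211, and the groups overlapped. Bysl overlaps Ccnd3 over 361 bases on the opposite strand, and adding its TPM gave 1.22 with groups that still did not overlap.

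Summed over the 3 D cyclins the level was 427, 293 and 464 TPM in wild-type and 671 and 627 TPM in RankCre-ki libraries. Both RankCre-ki sums were above all wild-type sums. Under median-ratio scaling the sums were 509, 339 and 387 against 486 and 471 scaled TPM, and the groups overlapped. Nearly all of each sum was Ccnd2 and Ccnd3, since Ccnd1 held 0.041% to 0.401% of D cyclin transcripts in wild-type and 1.33% and 1.74% in RankCre-ki libraries. The number of detected genes, the lineage marker sum and the levels of Cd48, S100a8, Klrb1c and Hbb-bt were likewise higher in both RankCre-ki libraries. Their part in the D cyclin and Cdkn1a differences was not tested. In bulk libraries fewer cells of a type and less RNA per cell cannot be told apart.

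**Figure D3:**
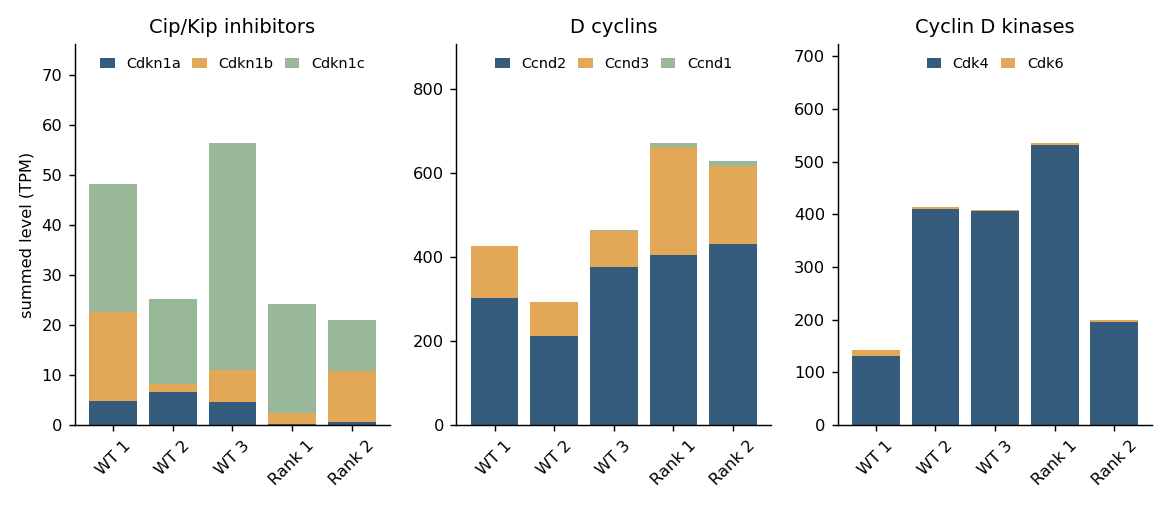
Summed TPM of the Cip/Kip inhibitors, the D cyclins and the cyclin D kinases in each library, stacked by gene (WT, wild-type replicates; Rank, RankCre-ki replicates; each axis starts at 0 and has its own scale). The D cyclin bars are tallest in both RankCre-ki libraries, Cdkn1a is barely visible there in the Cip/Kip bars, and the kinase bars are nearly all Cdk4.

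Of the kinases, Cdk4 (chr10:127063534-127067920, plus strand) made up 92.7% to 99.4% of the pair. It was at 132, 410 and 406 TPM in wild-type and at 531 and 196 TPM in RankCre-ki libraries. The 2 low values were those of name series 1 and the 3 high values those of name series 2. Within each series the RankCre-ki value was above every wild-type value, at 196 against 132 TPM and at 531 against 410 and 406 TPM. Its log2 difference of 0.21 ± 0.66 (SE) had a p of 0.764 and an adjusted p of 0.992 in limma, and was 0.57 and 0.38 within the series. With a block for name series it was 0.46, with an unadjusted p of 0.117 and an adjusted p of 0.596 in limma. Under median-ratio scaling it turned to -0.30. The gene Tspan31 shares 641 bases with Cdk4 on the opposite strand, and with its TPM added the difference was -0.025. Cdk6 (chr5:3341485-3531008, plus strand), known to time the exit of HSCs from quiescence, was at 10.4, 3.58 and 2.26 TPM in wild-type and at 5.14 and 3.32 TPM in RankCre-ki libraries. The groups overlapped, with a log2 difference of -0.11 ± 1.28 (SE), a p of 0.935 and an adjusted p of 0.998 in limma, and it had opposite signs within the series (-1.41 and 0.67).

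Ratios of TPM inside a library, taken as log2((a + 1)/(b + 1)), do not depend on scaling apart from the added 1 TPM. The 5 inhibitors against the D cyclins and kinases stood at -2.11, -2.60 and -2.98 in wild-type and at -3.54 and -3.00 in RankCre-ki libraries. RankCre-ki replicate 2 and wild-type replicate 3 were almost equal, so the groups were apart by little, with a mean difference of -0.71. It was -0.89 and -0.75 within name series 1 and 2. Ccnd1 against Ccnd2 plus Ccnd3 was at -8.51, -7.76 and -7.34 in wild-type and at -6.06 and -5.70 in RankCre-ki libraries. This ratio had the clearest gap between the groups, with a mean difference of 1.99. The other 4 ratios overlapped between the groups. Their mean differences were -0.95 for Cip/Kip against INK4, 0.29 for Cdkn1c against Cdkn1a plus Cdkn1b, -0.31 for Cdk6 against Cdk4 and -1.0 for Cdkn2c against Cdkn2d. The last rests on the library in which Cdkn2c was found.

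**Figure D4:**
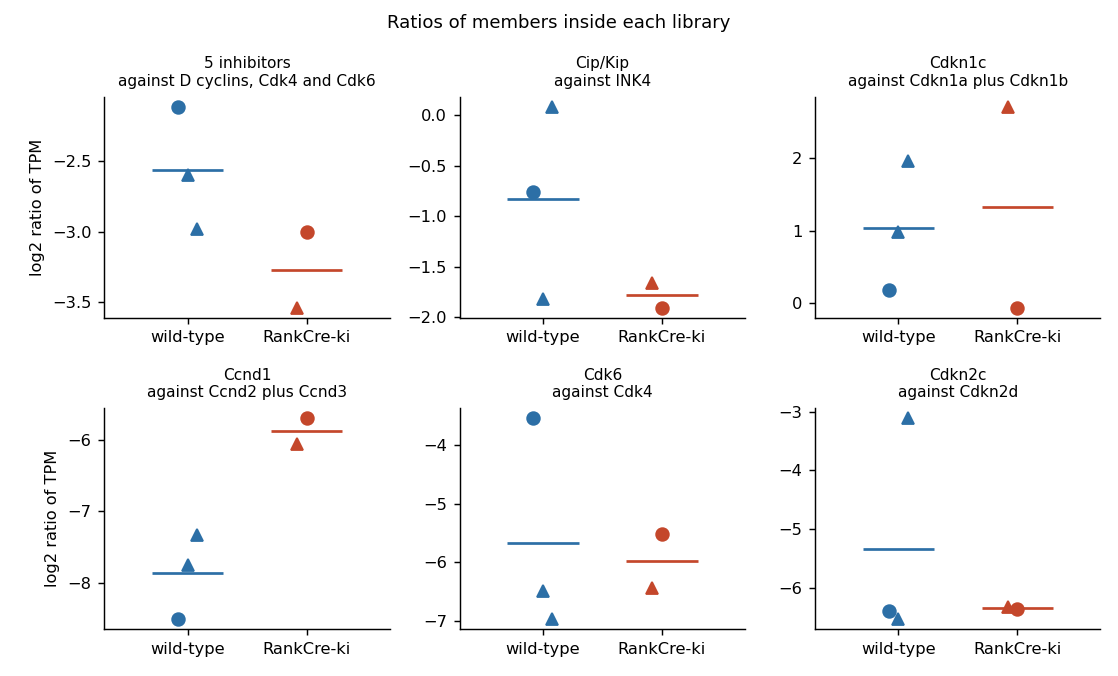
Log2 ratios of TPM between members or groups of members inside each library, with 1 TPM added to both sides. Circles are name series 1, triangles name series 2 and horizontal bars group means, and each panel has its own scale. The groups do not overlap for Ccnd1 against Ccnd2 plus Ccnd3 and for the 5 inhibitors against cyclins and kinases, where the nearest values are -2.98 and -3.00.

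The partners of these genes were read from lists of known function, and 0 genes of any list passed the threshold of the limma test. The counts below are to be read against all tested genes, of which 72.3% had a difference above 0, 6.34% were higher and 0.529% lower at an unadjusted p under 0.05, and 18.8% lay above and 3.71% below wild-type without overlap. Of the Cdk2 module, which acts after the D cyclins, 8 of 10 genes were tested, 7 had a difference above 0 and 0 reached an unadjusted p under 0.05, with a list median of 0.53 and 1 gene above and 0 below wild-type without overlap. Ccna2, the cyclin of S phase, was at 3.53, 0.0213 and 0.140 TPM in wild-type and at 9.28 and 13 TPM in RankCre-ki libraries. Its groups did not overlap, with a log2 difference of 2.79 ± 1.25 (SE) and an unadjusted p of 0.056. Cdk2 differed by -0.05 ± 0.67 (SE), and Ccne1 and Ccne2, the cyclins that pair with it, by 1.19 ± 1.63 and 0.27 ± 1.71 (SE). Mnat1, a subunit of the CDK-activating kinase, differed by 0.96 and Cdc25a, a phosphatase that activates Cdk2, by 0.78, with groups that overlapped in all of these but Ccna2.

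Of the 19 genes of the Rb family, E2F factors and the DREAM complex, which are the substrates of cyclin D kinases and their effectors, 19 were tested, 10 had a difference above 0 and 0 reached an unadjusted p under 0.05, with a median of 0.24 and 2 genes above and 2 below wild-type without overlap. Rb1 was at 23.1, 85.2 and 10.6 TPM in wild-type and at 16.5 and 9.46 TPM in RankCre-ki libraries, and Rbl2, its relative in resting cells, at 3.95, 11.5 and 26.4 against 45.2 and 19.5 TPM. Both overlapped, with log2 differences of -1.10 ± 1.02 and 1.37 ± 1.04 (SE). Rbl1 differed by -0.43, E2f1 by -1.15 and the repressor E2f4 by -0.20, also with overlap. Lin52, a DREAM subunit, was at 21.2, 31.8 and 66.2 against 19.8 and 1.06 TPM, with both RankCre-ki values below wild-type by little in replicate 1. E2f7, a repressing E2F, was at 2.29, 0 and 0.831 against 5.08 and 4.07 TPM, with RankCre-ki above.

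Genes that degrade CDK inhibitors and D cyclins had a list median of 1.29, with 15 of 17 tested genes above 0, 1 at an unadjusted p under 0.05, a share near that of all genes, and 5 above and 1 below wild-type without overlap. Skp1 was matched to no row by that symbol. The gene with that p was Ambra1, the substrate receptor that targets D cyclins for degradation, at 0, 0.120 and 0.572 TPM in wild-type and at 3.57 and 3.40 TPM in RankCre-ki libraries. Its groups did not overlap, with a log2 difference of 1.89 ± 0.72 (SE), an unadjusted p of 0.030 and an adjusted p of 0.610 in limma, at levels low in both groups. Ambra1 reached 1 TPM in RankCre-ki libraries alone, so it passed the filter on low values only through that group. With no filter its unadjusted p in limma was 0.121. Ddb1, the adaptor of the same ubiquitin ligase family, was at 2.5, 18.7 and 35.2 against 68.1 and 44.8 TPM, again without overlap. Skp2 and Fbxw7, receptors for p27 and for cyclin E, differed by 1.16 ± 1.52 and 0.71 ± 1.37 (SE) with overlap.

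Among known transcriptional regulators of the members, 18 of 20 were tested, 12 had a difference above 0 and 1 reached an unadjusted p under 0.05, with a median of 0.62 and 4 genes above and 4 below wild-type without overlap. That gene was Gata2, a stem cell transcription factor, at 16.4, 8.93 and 36.4 TPM in wild-type and at 106 and 102 TPM in RankCre-ki libraries. The groups were well apart, with a log2 difference of 2.5 ± 0.75 (SE), an unadjusted p of 0.011 and an adjusted p of 0.521 in limma, the smallest adjusted p among the tested genes, which other genes shared. Nr4a1, an immediate early gene, was at 16, 9.60 and 1.59 against 25.3 and 74.8 TPM, without overlap. The 4 genes below wild-type were Foxo1, Hes1, Smad3 and Klf4, with log2 differences of -1.23, -1.84, -1.19 and -1.98. Gfi1 and Foxo3, which restrain HSC cycling, differed by 0.67 ± 1.31 and 0.85 ± 1.44 (SE), with overlap.

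Of 16 proliferation genes, 16 were tested, 13 had a difference above 0 and 0 reached an unadjusted p under 0.05, with a median of 0.64. There were 3 genes above wild-type without overlap, the same share as among all genes, and 1 below. Mki67, which encodes the Ki-67 protein of cycling cells, was at 19.7, 5.02 and 7.71 TPM in wild-type and at 0.614 and 0.202 TPM in RankCre-ki libraries. It lay below wild-type in both, with a log2 difference of -2.88 ± 1.26 (SE) and an unadjusted p of 0.052 in limma. Mki67 reached 1 TPM in wild-type libraries alone and passed the filter on low values only through them. The replication helicase genes Mcm2 and Mcm7 lay above, at 26.0, 18.4 and 57.8 against 104 and 62.8 TPM for Mcm2 and at 66.7, 46.1 and 87.3 against 157 and 116 TPM for Mcm7. Most of the list overlapped between the groups.

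Of the imprinted neighbours of Cdkn1c, 8 of 10 were tested, 4 had a difference above 0 and 0 reached an unadjusted p under 0.05, with a median of 0.20 and 2 genes above and 0 below wild-type without overlap. Kcnq1ot1, the noncoding RNA whose paternal expression silences Cdkn1c in cis, was at 5.37, 2.39 and 0.511 TPM in wild-type and at 2.69 and 4.16 TPM in RankCre-ki libraries, with overlap. Nap1l4 and Tssc4, which lie in the same cluster, were at 55.3, 48.9 and 103 against 146 and 107 TPM and at 21.9, 13.2 and 45.8 against 75.9 and 46.5 TPM, both with RankCre-ki above.

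**Figure D5:**
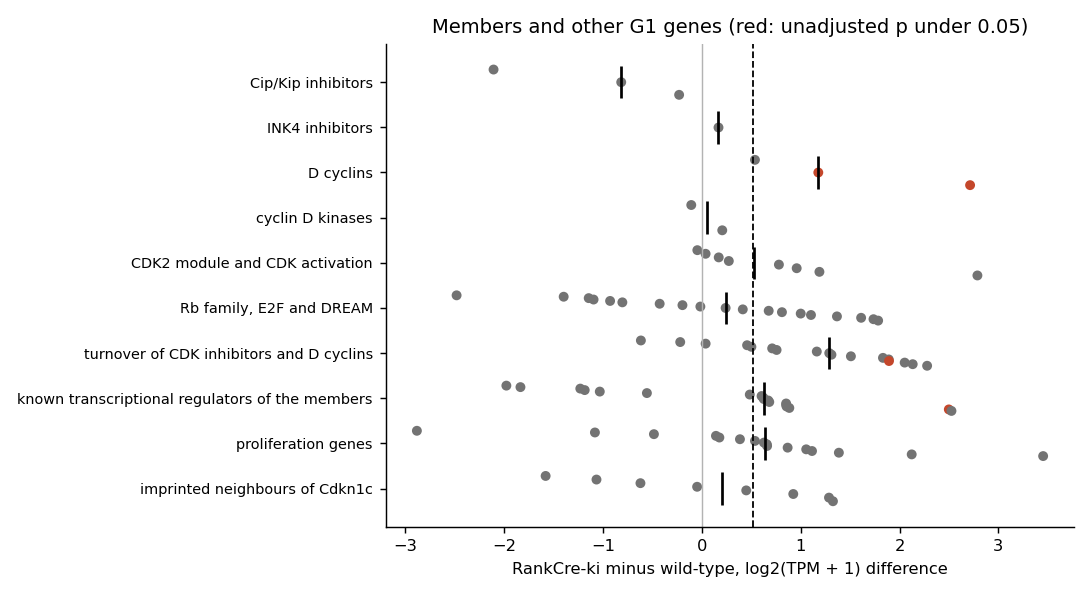
Difference of mean log2(TPM + 1), RankCre-ki minus wild-type, for each tested gene (dots) of the member classes and of the other G1 lists. Vertical bars are list medians, the dashed line is the median of all tested genes at 0.52, and red dots have an unadjusted p under 0.05. The red dots are Ccnd1, Ccnd3, Ambra1 and Gata2, and the Cip/Kip genes lie left of the dashed line.

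The genes with the pattern most like that of a member over the 5 libraries were found by the root mean square distance of centred log2(TPM + 1) values among 6480 protein-coding genes whose mean reached 10 TPM. For Cdkn1b they were Tet2 (distance 0.237), Cul7 (0.282) and Ptms (0.339), against a median distance of 1.51. Cdkn1c was nearest to Pdcd2l (0.151), B9d2 (0.157) and Msl3 (0.165), against a median of 1.05. For Cdk6 the nearest were Cmtm3 (0.115), S100a6 (0.119) and Id2 (0.151), against a median of 1.14. With 5 libraries and this many genes, some genes lie near any pattern, and the distances are a description.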

How the data were processed

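HSCs were FACS sorted from mice aged 3 weeks, and polyadenylated RNA was converted to full-length cDNA by template switching, amplified and tagmented. The authors deposited 1 table of TPM per gene for all 5 libraries. Their read processing names bcl2fastq 2.20.0 and featureCounts 2.0.1 on mm10, and the software behind the TPM is not given in the sources used here. There were 179 values above 0 and under 1e-06 TPM, which whole fragments cannot give. The 92 spike-in rows were at 0 and were removed. The test covered genes that reached 1 TPM in 2 or more libraries, on log2(TPM + 1) values, with limma 3.58.1 (R 4.3.3, mean-variance trend, no covariate, two-sided) and Benjamini-Hochberg adjustment, and a call needed an adjusted p no higher than 0.1 with a log2 difference beyond 2 in size. The code was tested on simulated data. Positions came from GENCODE M21 (GRCm38), which held 99.7% of gene identifiers.

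The members, lists and tests were chosen with earlier results of these data known. Genes named beside the members were fixed list members plus up to 2 per list with the smallest p, and the 3 genes most like Cdkn1b, Cdkn1c and Cdk6. Alternatives were a pseudocount of 0.1 TPM, filters of 5 TPM or none, median-ratio scaling, quantile normalization, nuclear protein-coding genes only, no mean-variance trend, blocks for replicate number or name series, and leaving out each library. Sums with overlapping genes and counts of non-overlapping groups under other settings were added after seeing the data.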

Additional observations from a re-analysis of the deposited data

How the results depend on the processing

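No member passed the threshold under any alternative, and Cdkn1a, Cdkn1c, Ccnd1, Ccnd2 and Ccnd3 kept their direction in every setting that gave a value. Unadjusted p ranged from 0.019 to 0.249 for Cdkn1a, from 0.011 to 0.214 for Ccnd1 and from 0.015 to 0.231 for Ccnd3, with the lowest p of Cdkn1a and Ccnd1 in the fit without a mean-variance trend. Genes called were 0 in the main fit, 1 with the replicate block, and 0 to 304 with a library left out (304 without RankCre-ki replicate 1, where the lone RankCre-ki library is assumed to vary like wild-type). Genes at an unadjusted p under 0.05 were 960, and 511 with a 5 TPM filter, 616 under quantile normalization, 565 with the replicate block, 1409 with the name series block, and 633 (without wild-type replicate 2) to 1401 (without wild-type replicate 3) with a library left out. The median of all genes was -0.09 under quantile normalization, and that of the members relative to it 0.15 in place of -0.35 (-0.76 to -0.091 with a library left out). Members with RankCre-ki above wild-type were 3 (18.8% of genes), 1 under median-ratio scaling (12.2%), 3 under quantile normalization (11.6%) and 3 to 4 with a library left out (24.3% to 33.8%). Those below were 1 (3.71% of genes), 2 under median-ratio scaling (8.88%), 2 under quantile normalization (11.2%) and 1 to 2 with a library left out (5.66% to 12.3%). The second was Cdkn1c without wild-type replicate 2 or RankCre-ki replicate 1, and Cdkn2d without wild-type replicate 3. The ratio of Cdkn1c to Cdkn1a plus Cdkn1b ran from -1.10 to 1.68 (without RankCre-ki replicates 1 and 2). That of Ccnd1 to Ccnd2 plus Ccnd3 was 3.27 with a pseudocount of 0.1 and 2.81 within name series 1, and that of Cdk6 to Cdk4 was -1.98 within name series 1. The causes were not tested.

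Uncalled differences changed sign as follows. Median-ratio scaling gave -0.34 for Cdkn2d, -0.30 for Cdk4 and -0.021 for Trp53. Quantile normalization gave -0.94 for Ccne2, -0.36 for Fbxw7, -0.28 for Gfi1, -0.20 for Foxo3, -0.98 for Kcnq1ot1 and -0.38 for Cdc25a. Nuclear protein-coding genes alone gave -0.0071 for Cdkn2d, the name series block 0.12 for Cdk2, and adding Tspan31 gave -0.025 for Cdk4. Same-numbered libraries deviated apart, with correlations across genes of -0.38 and -0.195. They are also of different name series, so these correlations cannot tell whether the numbers pair libraries. The replicate block gave -0.11 for Cdkn2d, 0.21 for E2f4, 0.36 for Cdk2, -0.092 for Kcnq1ot1 and -0.032 for Cdc25a. With a library left out the ranges crossing 0 were -1.13 to 0.67 for Cdkn1b, -0.51 to 0.92 for Cdk4, -0.49 to 0.41 for Cdk6, -0.11 to 0.33 for Cdkn2d, -0.19 to 2.32 for Ccne1, -0.57 to 1.95 for Ccne2, -0.13 to 1.33 for Fbxw7, -0.20 to 1.47 for Foxo3, -0.66 to 0.21 for E2f4, -2.51 to 0.22 for E2f1, -0.59 to 0.50 for Cdk2, -0.092 to 0.95 for Kcnq1ot1, -0.032 to 1.75 for Cdc25a and -0.00065 to 1.34 for Gfi1.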
